A study of Mus musculus with 52 samples.

Results

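Tumours of young mice given an antibody against CTLA4 were compared with tumours of young mice given an antibody against PD-L1. The comparison took the 12 young anti-CTLA4 and the 10 young anti-PD-L1 libraries, which are 22 of the 52 libraries of the study, by the group names of the count columns, with the sequencing batch as a covariate. All mice were Balb/C, and the young ones were 8 to 10 weeks old, within a protocol range that reaches 12 weeks. Each mouse carried 100000 injected cells of 4T1, a mouse mammary carcinoma line, in the 4th left mammary fat pad. Each received 3 intraperitoneal doses of 200 µg on days 7, 10 and 13. CTLA4 was targeted with clone 9D9 and PD-L1 with clone 10F.9G2, and 7 young mice used here as a reference received the isotype clone LTF-2. Clone 9D9 is a mouse antibody and the other two are rat antibodies, so the target and the clone cannot be told apart. Tumours of at most about 150 mm3 were taken for poly(A)-selected, strand-marked RNA sequencing. The same contrast in mice older than 12 months, with 8 libraries of each antibody, served as the comparison for age.

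CTLA4 and PD-L1 are both brakes on T cells, and they act at different places. CTLA4 sits on activated and regulatory T cells and competes with the costimulatory receptor CD28 for CD80 and CD86 on antigen-presenting cells. PD-L1, encoded by Cd274, is displayed by tumour cells and myeloid cells and engages the receptor PD-1, encoded by Pdcd1, on T cells that have already been activated. An antibody bound to a cell can also be recognised through its constant part by Fc gamma receptors of macrophages and natural killer cells.

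Total counts of the 22 libraries ran from 11968347 to 53778370, with a median of 17722538.5. Sequencing batches were unevenly spread over the antibodies. Of the anti-CTLA4 libraries 4 came from batch 1, 3 from batch 2 and 5 from batch 3, whereas 9 anti-PD-L1 libraries came from batch 2, 1 from batch 3 and 0 from batch 1. All 7 isotype libraries came from batch 2. Batch 2 was thus the one place where several libraries of both antibodies stood side by side, and its values are given beside those of the fit over all batches. Keratins of the tumour cells were high in all 22 libraries, with means of 762 CPM (normalised counts scaled to the library total) for Krt18 and 733 CPM for Krt8, and Epcam averaged 125 CPM. The labels give biological replicate numbers but no animal, and a p-value here therefore reflects how these libraries vary, which may be in part technical. The tumours were profiled in bulk, where fewer cells of a type and less RNA per cell cannot be told apart.

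No gene separated the antibodies at the threshold. With edgeR's quasi-likelihood test and batch as a term, 0 of 17899 genes (0%) had a Benjamini-Hochberg adjusted p under 0.05, and the smallest adjusted p was 0.0672, for Zmynd15. At an unadjusted p under 0.05 there were 1242 genes (6.94%), of which 675 (3.77%) had a higher and 567 (3.17%) a lower fitted value under anti-CTLA4. These shares of 3.77% and 3.17% are the background for every count of list members at p under 0.05 below. The unadjusted count moved with single libraries: it was 642 without anti-CTLA4 replicate 1, 621 without anti-CTLA4 replicate 2 and 2853 without anti-PD-L1 replicate 1. DESeq2 with the same terms gave an adjusted p under 0.05 to 13 genes, 9 higher and 4 lower. Among them were Zmynd15, Rab25, Tifab, Klc4 and Slc40a1. The smallest DESeq2 adjusted p, 1.42e-13, was that of Zfp781, at an extreme log2 fold change of 22.1. Other extreme log2 fold changes among the 13 were 11.7 for Gm2174, -8.32 for Zbed6, -7.61 for Gm15899 and -4.69 for Ccdc24. The median standard error (SE) of a log2 fold change was 0.26, or 0.22 among genes with a mean of at least 1 CPM. Fold changes below are log2 values of anti-CTLA4 minus anti-PD-L1 from the edgeR fit, and genes are described by these values, their SE and their 95% confidence interval, since none passed.

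Zmynd15, which encodes a zinc finger protein of the MYND type, had the smallest p of all genes. Its level ran from 20.7 to 42.7 CPM under anti-CTLA4 with a median of 28.6, and from 11.8 to 27.8 CPM under anti-PD-L1 with a median of 16.3. All 12 anti-CTLA4 libraries lay above the anti-PD-L1 median, and 6 lay above the highest anti-PD-L1 library, replicate 10. The log2 fold change was 0.94 ± 0.18 (SE, interval 0.58 to 1.31), and in batch 2 alone it was 1.03 ± 0.21. The 3 anti-CTLA4 libraries of batch 2 held 25.1, 42.1 and 37.4 CPM. Isotype tumours lay near the anti-PD-L1 ones, from 16.4 to 23.8 CPM with a median of 17.6. Without anti-PD-L1 replicate 10 the edgeR adjusted p was 0.00577, and without anti-CTLA4 replicate 11 it was 0.0454. No other single omission brought Zmynd15 below 0.05. Other omissions raised it: the smallest adjusted p of any gene was 0.936 without anti-CTLA4 replicate 2. It was 0.216 without anti-CTLA4 replicate 3 and 0.191 without anti-PD-L1 replicate 1, so Zmynd15 was no lower than these. Its log2 fold change ran from 0.82 to 1.05 across the omissions.

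The next gene on the same stretch of chromosome 11 was Cxcl16, a chemokine and scavenger receptor that draws CXCR6-bearing T cells. Its level ran from 186 to 740 CPM with a median of 336 under anti-CTLA4, and from 134 to 252 CPM with a median of 172 under anti-PD-L1. Of the 12 anti-CTLA4 libraries 10 lay above every anti-PD-L1 library. In batch 2 the values of 318, 369 and 341 CPM all lay above the 9 anti-PD-L1 libraries, which is seen for 115 of the 17899 genes (0.642%). The log2 fold change was 0.94 ± 0.23 (edgeR adjusted p = 0.311) and 0.89 ± 0.25 in batch 2 alone. Zmynd15 (chr11:70459433-70466202, plus strand, GRCm38) and Cxcl16 (chr11:70453983-70459984, minus strand) overlap by 552 exonic bases. Whether strand was used in counting was not stated by the labels or notes, so reads of the shared bases cannot be assigned to 1 of the pair, and the 2 fold changes may draw on the same reads.

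Among the other genes with a positive fold change and the smallest p, a related pair of signalling adaptors stood out. Tifa, which links pattern recognition to TRAF6 and NF-κB, was at 22 to 51 CPM under anti-CTLA4 (median 34.5) and at 16 to 31.7 CPM under anti-PD-L1 (median 18.8), with a log2 fold change of 0.70 ± 0.17. Its relative Tifab was at 46.7 to 81.8 CPM (median 61.1) and at 35 to 78.7 CPM (median 45.4), with a log2 fold change of 0.61 ± 0.14. All 12 anti-CTLA4 libraries were above the anti-PD-L1 median for both genes. Batch 2 split the pair: the Tifa values of 33.1, 34.3 and 34.6 CPM lay above all 9 anti-PD-L1 libraries, and those of Tifab overlapped them. Exons of Tifa share 105 bases with a predicted gene model, which makes its count less certain.

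Gna15, the G alpha subunit of haematopoietic cells, was at 11.2 to 22.1 CPM under anti-CTLA4 and 7.52 to 16.1 CPM under anti-PD-L1, a log2 fold change of 0.62 ± 0.15. Klc4, a kinesin light chain, was at 0.53 ± 0.13, and its batch 2 values of 28.6, 29.6 and 27.0 CPM lay above all 9 anti-PD-L1 libraries (17.6 to 25.4 CPM). Rab25, a small GTPase of epithelial recycling endosomes, was at 1.60 ± 0.37 from low levels of 1.51 to 8.16 CPM against 0.578 to 3.43 CPM. The groups overlapped for each of these genes when all batches were pooled.

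Dntt, the terminal transferase that adds bases at V(D)J joints in developing lymphocytes, had isotype values close to those of anti-CTLA4. It was at 1.11 to 3.15 CPM under anti-CTLA4 (median 1.6), 0.245 to 1.63 CPM under anti-PD-L1 (median 0.678) and 0.892 to 2.46 CPM under isotype (median 1.89). The log2 fold change of anti-CTLA4 against anti-PD-L1 was 1.38 ± 0.34. Against the shared isotype libraries anti-CTLA4 stood at 0.10 ± 0.39 and anti-PD-L1 at -1.28 ± 0.33, the latter with an edgeR adjusted p of 0.0325. For Zmynd15 the same values against isotype were 0.81 ± 0.21 (adjusted p = 0.118) for anti-CTLA4 and -0.13 ± 0.17 (adjusted p = 0.646) for anti-PD-L1. The low value was that of anti-PD-L1 for Dntt, and the high value was that of anti-CTLA4 for Zmynd15.

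**Figure D1:**
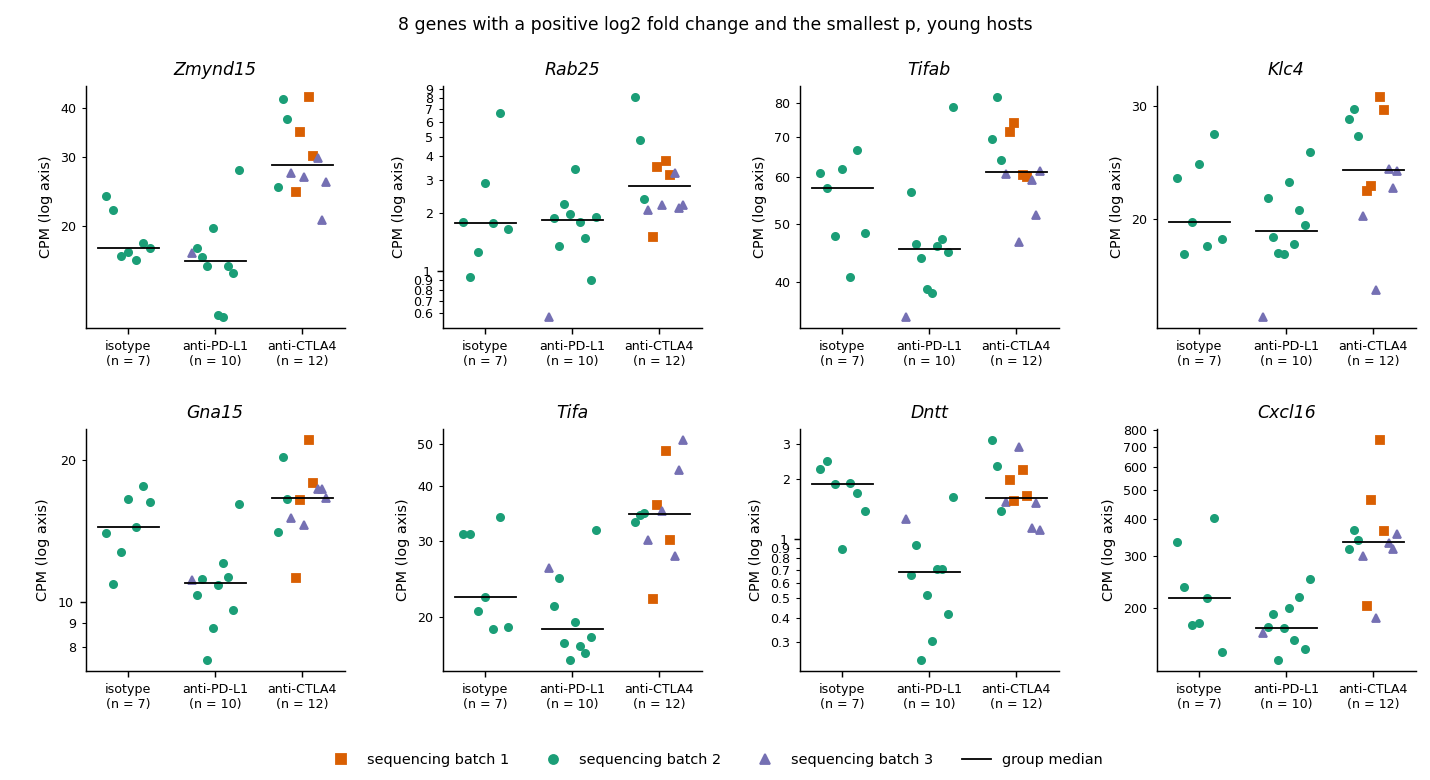
Levels in CPM on a log axis of the 8 genes with a positive log2 fold change and the smallest p, 1 point per library of the young isotype, anti-PD-L1 and anti-CTLA4 groups, with the sequencing batch as colour and shape and the group median as a line. For Cxcl16, 10 of the 12 anti-CTLA4 libraries lie above every anti-PD-L1 library, and for Dntt the anti-PD-L1 median of 0.678 CPM lies below those of both other groups.

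The clearest separation of the 22 libraries was in Il27, the p28 subunit of the cytokine interleukin-27, which antigen-presenting cells release. All 12 anti-CTLA4 libraries, at 1.45 to 2.66 CPM (median 1.85), lay above all 10 anti-PD-L1 libraries, at 0.531 to 1.36 CPM (median 1.16). Il27 was the only gene of 17899 (0.00559%) for which this held, and for 0 genes (0%) did all 12 lie below all 10. It was singled out for this after its values were seen. The estimated counts were small, 20 to 125 under anti-CTLA4 and 13 to 40 under anti-PD-L1. The log2 fold change was 0.87 ± 0.28 (interval 0.31 to 1.43, edgeR p = 0.00294, adjusted p = 0.657), and 1.01 ± 0.33 in batch 2 alone. Isotype tumours spanned both groups, from 0.808 to 1.9 CPM.

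Il12b, the p40 subunit shared by interleukin-12 and interleukin-23, was nearly as well separated. It was at 0.945 to 4.81 CPM under anti-CTLA4 (median 2.87) and 0.572 to 1.2 CPM under anti-PD-L1 (median 0.847), and 11 of 12 anti-CTLA4 libraries exceeded the highest anti-PD-L1 library. The log2 fold change of Il12b was 1.30 ± 0.35 (interval 0.59 to 2.01, adjusted p = 0.461), with 1.16 ± 0.42 in batch 2 alone. Ebi3, which pairs with p28 to form interleukin-27, was at 0.56 ± 0.24, with 4.86 to 14.1 CPM against 3.5 to 8.35 CPM. The partners that complete interleukin-12 and interleukin-23 were at 0.23 ± 1.01 (Il12a, interval -1.80 to 2.25) and 0.04 ± 0.29 (Il23a, interval -0.54 to 0.62), and their difference from Il12b was not tested. The list of 20 inflammatory cytokines as a whole had a median of -0.09, with 2 members at p under 0.05 in each direction.

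Genes of antigen presentation on MHC class II held the highest list median of the 37 lists examined with the batch term and in batch 2 alone, though not without a batch term, where the cytotoxic list was at 1.28, T cells at 1.14 and lymph node stroma at 1.00 beside 0.73 for class II. MHC class II molecules show peptides to CD4 T cells and are made by dendritic cells, macrophages and B cells. The list's coactivator CIITA joins the RFX and NF-Y factors bound at the X and Y boxes of class II promoters. Of the 13 class II list members 10 matched a promoter window of 250 bases before to 50 after the start in the RefSeq tables (GRCm38.p6). The windows were searched on both strands for ACNGATG, the end of the X box, which 3236 of all 32851 windows (9.85%) held, and for ATTGG, the core of the Y box, which 12289 (37.4%) held. The first followed by the second after 20 to 25 bases, a spacing chosen after the windows were seen, stood in 22 windows (0.067%), among them those of 3 of the 10 class II members, H2-Eb1, H2-DMb1 and H2-DMb2. H2-Aa and H2-Oa held both motifs without that pairing. H2-Eb1 (chr17:34305617-34305916, plus strand) and H2-DMb1 (chr17:34152941-34153240, plus strand) are printed to show this shared layout, with ACNGATG and ATTGG in capitals and 22 and 23 bases between them. A match is a description of letters, not a site shown to be bound.
H2-Eb1: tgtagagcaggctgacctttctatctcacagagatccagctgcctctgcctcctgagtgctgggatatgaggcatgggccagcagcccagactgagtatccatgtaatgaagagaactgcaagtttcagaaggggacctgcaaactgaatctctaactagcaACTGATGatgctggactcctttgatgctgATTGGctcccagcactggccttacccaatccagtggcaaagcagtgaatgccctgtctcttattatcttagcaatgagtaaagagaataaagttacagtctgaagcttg
H2-DMb1: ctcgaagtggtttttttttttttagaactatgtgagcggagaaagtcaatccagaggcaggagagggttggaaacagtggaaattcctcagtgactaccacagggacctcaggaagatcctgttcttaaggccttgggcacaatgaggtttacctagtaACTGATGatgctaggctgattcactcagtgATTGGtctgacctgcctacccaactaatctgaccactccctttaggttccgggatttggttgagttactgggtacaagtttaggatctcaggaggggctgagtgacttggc

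Of the 13 class II genes tested, 11 had a positive log2 fold change and 9 an unadjusted p under 0.05, all 9 positive, beside 3.77% of all genes. The median was 0.73, against -0.03 over all genes. H2-Ab1, the beta chain of the I-A molecule, was at 1027 to 3073 CPM under anti-CTLA4 (median 1728) and at 515 to 1512 CPM under anti-PD-L1 (median 858), so that 10 of 12 libraries exceeded the highest anti-PD-L1 library. Its log2 fold change was 1.03 ± 0.32 (interval 0.39 to 1.68, adjusted p = 0.652). Isotype tumours were between them, from 778 to 1447 CPM with a median of 981. In batch 2 the 3 anti-CTLA4 tumours held 1328, 1975 and 2338 CPM, and the first of these lay within the anti-PD-L1 range.

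The partner chain H2-Aa was at 0.96 ± 0.34 and the I-E beta chain H2-Eb1, whose promoter is printed above, at 0.98 ± 0.35. Both were chosen for mention after their values were seen, as were the class II members named in the next sentences beyond H2-DMa and Ctss. H2-DMa, a chain of the peptide exchange factor H2-M, was at 162 to 356 CPM against 111 to 230 CPM, a log2 fold change of 0.73 ± 0.21 (adjusted p = 0.548). The beta chains of the same factor, H2-DMb1 and H2-DMb2, were at 0.82 ± 0.32 and 0.76 ± 0.31. The invariant chain Cd74 was at 0.73 ± 0.32. Ctss, the protease that trims that chain, was at 650 to 2780 CPM (median 1642) against 594 to 1285 CPM (median 830), a log2 fold change of 0.67 ± 0.22, and Ifi30, a thiol reductase of the same compartment, was at 0.42 ± 0.18.

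Members of the list with other values were the regulator Ciita at 0.29 ± 0.41, the protease Lgmn at 0.13 ± 0.18, and H2-Oa and H2-Ob at -0.64 ± 0.96 and -1.22 ± 1.43. H2-O is known as a modulator of H2-M in B cells. The list median was 0.67 in batch 2 alone, 0.73 without a batch term, and 0.61 to 0.82 when each of the 22 libraries was left out in turn. With the B cell level of each library as a covariate it was 0.76.

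Macrophage genes were mostly positive, with exceptions. Of 23 tested, 17 had a positive log2 fold change. At p under 0.05, 10 were positive and 1 negative, beside 3.77% and 3.17% of all genes. The list median was 0.27. The median was 0.11 in batch 2 alone and 0.14 without anti-PD-L1 replicate 1. Fcgr1, the high-affinity Fc gamma receptor, was at 46.1 to 150 CPM under anti-CTLA4 (median 99.7) and 42.9 to 140 CPM under anti-PD-L1 (median 62.2). The top anti-PD-L1 value was that of replicate 10, and 11 of 12 anti-CTLA4 libraries were above the anti-PD-L1 median. For Fcgr1 the log2 fold change was 0.84 ± 0.23 (interval 0.38 to 1.29, adjusted p = 0.461), with 0.88 ± 0.27 in batch 2 alone.

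The complement genes of tissue macrophages gave smaller values with narrow errors. C1qb was at 427 to 996 CPM (median 779) against 409 to 952 CPM (median 524), a log2 fold change of 0.59 ± 0.17, and C1qc was at 0.51 ± 0.17. Lyz2, the lysozyme of myeloid cells, was at 1.03 ± 0.34 and Aif1 at 0.87 ± 0.28, both chosen after their values were seen. In the opposite direction, Cd163, a scavenger receptor for haemoglobin on resident macrophages and likewise chosen afterwards, was at -1.55 ± 0.67 (interval -2.90 to -0.21), and 1 of 12 anti-CTLA4 libraries exceeded its anti-PD-L1 median. Mrc1, the mannose receptor of alternatively activated macrophages, was at -0.51 ± 0.34. Csf1r and Adgre1, which mark macrophages at large, were not among the genes with p under 0.05.

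Among 15 genes of Fc gamma receptors and phagocytosis, 12 had a positive log2 fold change. Of these, 5 had p under 0.05, beside 3.77% of all genes, and the list median was 0.18. The activating receptors Fcgr4 and Fcgr3 were at 0.86 ± 0.28 and 0.74 ± 0.25, and their signalling chain Fcer1g at 0.65 ± 0.21. The inhibitory receptor Fcgr2b was at 0.28 ± 0.19 (interval -0.11 to 0.67). Fcgr4 ran from 61.2 to 221 CPM under anti-CTLA4 and from 55.6 to 117 CPM under anti-PD-L1. The list median was 0.35 without anti-CTLA4 replicate 1 and 0.29 without replicate 2.

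**Figure D2:**
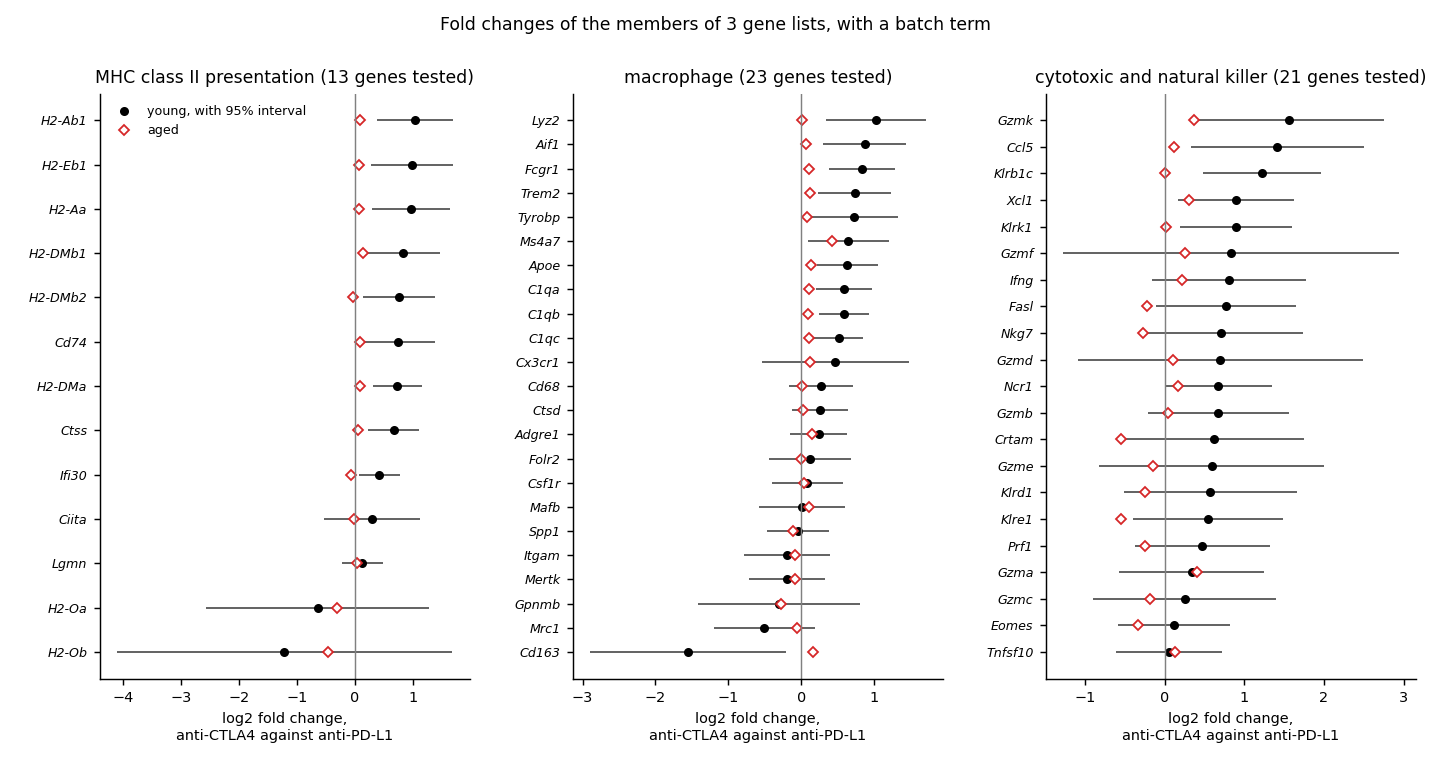
Log2 fold change of anti-CTLA4 against anti-PD-L1 for each tested member of the MHC class II, macrophage and cytotoxic lists, with the 95% interval as a bar for young hosts and an open diamond for the same contrast in aged hosts. All 9 class II members with p under 0.05 sit to the right of 0, whereas Cd163 lies at -1.55, and the aged values of the class II genes cluster near 0 with a median of 0.04.

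Cytotoxic and natural killer genes were positive throughout, with large errors. Of 22 list members 21 were tested and 1 was at 0 in all 22 libraries, all 21 had a positive log2 fold change, 6 had p under 0.05, and the median was 0.68. Over all genes 46.7% were positive, and 3.77% were positive at p under 0.05. Klrb1c, a lectin-like receptor of natural killer cells, was at 2.84 to 8.25 CPM under anti-CTLA4 (median 4.75) and 0.613 to 4.07 CPM under anti-PD-L1 (median 2.01). Its log2 fold change was 1.22 ± 0.37 (interval 0.48 to 1.97, adjusted p = 0.596), and 1.21 ± 0.49 in batch 2 alone. Gzmk, a granzyme of memory-type CD8 T cells, was at 1.65 to 40.8 CPM (median 5.47) against 0.409 to 3.35 CPM (median 1.12), a log2 fold change of 1.56 ± 0.59. Ccl5, a chemokine released by activated T and natural killer cells, was at 33.7 to 972 CPM (median 214) against 12.1 to 98.4 CPM (median 40.6), a log2 fold change of 1.41 ± 0.54.

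The cytotoxic list depended on the handling of batch in size but not in sign. Its median was 0.50 in batch 2 alone, 1.28 without a batch term and 0.49 to 0.92 across the omissions of 1 library. The highest Gzmk and Ccl5 values came from anti-CTLA4 replicate 8 of batch 1, a batch that holds no young anti-PD-L1 library. In batch 2 the 3 anti-CTLA4 libraries held 33.7, 85.2 and 186 CPM of Ccl5 and overlapped the anti-PD-L1 libraries.

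T cell identity genes, the receptor chains and signalling proteins common to T cells, had a median near 0 with the batch term. Of 20 tested, 11 were positive, 0 had p under 0.05 and the median was 0.07, although the median library level (mean log2 CPM) was 4.47 under anti-CTLA4 and 2.90 under anti-PD-L1. Without a batch term the list median was 1.14, and without anti-PD-L1 replicate 3 it was 0.69. The cytotoxic median of 0.68 was from all libraries, replicate 3 included, so these 2 values rest on different sets. The difference between these lists was not tested. Cd8a, the coreceptor of killer T cells, was at 10.2 to 110 CPM (median 40.4) against 4.41 to 57.4 CPM (median 8.13), with a log2 fold change of 0.32 ± 0.70 (interval -1.10 to 1.74) and 0.08 ± 0.69 in batch 2 alone. Cd4 was at -0.05 ± 0.68. Replicate 3 held the highest Cd8a value among the anti-PD-L1 libraries.

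The targets of the antibodies and their partners gave no value past the threshold. Cd274, which encodes PD-L1, was at 26.5 to 151 CPM under anti-CTLA4 and 26.7 to 113 CPM under anti-PD-L1, a log2 fold change of 0.19 ± 0.32 (interval -0.46 to 0.84), and it was -0.13 ± 0.36 in batch 2 alone. Ctla4 was at 3.53 to 29.6 CPM against 1.73 to 9.2 CPM, a log2 fold change of 0.76 ± 0.47 (interval -0.20 to 1.71). Foxp3, the regulatory T cell factor, was at 3.00 to 20.2 CPM against 1.55 to 8.13 CPM, a log2 fold change of 0.25 ± 0.54 (interval -0.83 to 1.34). The intervals of all 3 genes span 0 and do not show that the levels were alike. Cd80 and Cd86, the ligands for which CTLA4 and CD28 compete, were at 0.15 ± 0.25 and 0.49 ± 0.29, and Cd28 itself was at -0.68 ± 0.87.

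Pdcd1 encodes PD-1, the receptor for PD-L1. It was at 13 to 70.8 CPM under anti-CTLA4 (median 20.7) and 4.4 to 17.5 CPM under anti-PD-L1 (median 7.4), and all 12 anti-CTLA4 libraries lay above the anti-PD-L1 median. Its log2 fold change was 1.08 ± 0.43 (interval 0.21 to 1.95, adjusted p = 0.657) and 0.87 ± 0.35 in batch 2 alone. Of 20 inhibitory checkpoint genes 17 were positive, 2 at p under 0.05, with a median of 0.24 that was 0.42 without anti-CTLA4 replicate 1 and 0.41 without anti-PD-L1 replicate 3. The costimulatory receptors Tnfrsf4 (OX40) and Tnfrsf18 (GITR), carried by regulatory T cells, were at 0.91 ± 0.34 and 0.78 ± 0.36. Of 15 regulatory T cell genes 8 were positive. At p under 0.05, 3 were positive and 0 negative, beside 3.77% and 3.17% of all genes. The list median was 0.25. That median was 0.42 and 0.15 without anti-CTLA4 replicates 1 and 7, and 0.14 and 0.39 without anti-PD-L1 replicates 1 and 3.

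Interferon response lists were mostly positive with few members at p under 0.05. Over all genes 3.77% were positive at that level. Of 25 genes induced by interferon gamma 21 were positive, 2 at p under 0.05, and the median was 0.23. The interferon gamma median was 0.03 without anti-CTLA4 replicate 3, 0.08 without anti-PD-L1 replicate 1 and 0.45 without anti-CTLA4 replicate 1. Cxcl9, a chemokine that recruits CXCR3-bearing T cells, was at 164 to 491 CPM (median 207) against 92.6 to 248 CPM (median 131), a log2 fold change of 1.04 ± 0.38 (interval 0.27 to 1.81) and 1.18 ± 0.31 in batch 2 alone. Ifng itself was at 0.81 ± 0.48. Of 23 type I interferon genes 18 were positive, 2 at p under 0.05, with a median of 0.36 that was 0.09 without anti-CTLA4 replicate 3, and Mx1, an antiviral GTPase, was at 0.76 ± 0.28. The immunoproteasome subunit Psmb8 was at 0.44 ± 0.22, with all 3 batch 2 anti-CTLA4 libraries above the 9 anti-PD-L1 ones.

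Of 18 dendritic cell genes 13 were positive, 4 of them at p under 0.05, beside 3.77% of all genes. The list median was 0.26. Clec9a, a receptor for dead cells on cross-presenting dendritic cells, was at 2.88 to 11.3 CPM (median 4.64) against 0.796 to 7.81 CPM (median 2.23), a log2 fold change of 1.23 ± 0.46. Batf3, the factor needed for that lineage, was at 0.68 ± 0.28. Ccl17, a chemokine of activated dendritic cells, was at 1.29 ± 0.44. Of 14 monocyte recruitment genes 8 were positive and 6 negative with a median of 0.05, and 1 had p under 0.05: Ccr2, the receptor that brings monocytes into tissue, at 0.76 ± 0.24. Among mast cell and basophil genes 8 of 11 were positive with a median of 0.52, which was 0.29 without anti-PD-L1 replicate 1, and Fcer1a, the IgE receptor alpha chain, was at 1.12 ± 0.38.

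B cell and plasma cell genes had the lowest list medians, and the B cell median changed sign without 1 library. All 18 B cell genes tested had a negative log2 fold change, 0 had p under 0.05, and the median was -1.98. Over all genes 53.3% were negative. The B cell level (mean log2 CPM of the list) was 0.58 to 7.06 under anti-CTLA4 with a median of 1.73, and 0.01 to 6.50 under anti-PD-L1 with a median of 0.45, so the ordering of the medians is opposite to the fitted sign. The high anti-PD-L1 libraries were replicate 3 at 6.50 in batch 2 and replicate 1 at 5.18, the only one in batch 3. Without replicate 3 the list median was 0.23, and without a batch term it was 0.59. Cd79a, a chain of the B cell receptor, was at -3.18 ± 2.15 (interval -7.51 to 1.15). Of 14 plasma cell genes 13 were negative, 5 at p under 0.05, beside 3.17% of all genes. Their median of -1.69 became -0.63 without replicate 3.

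**Figure D3:**
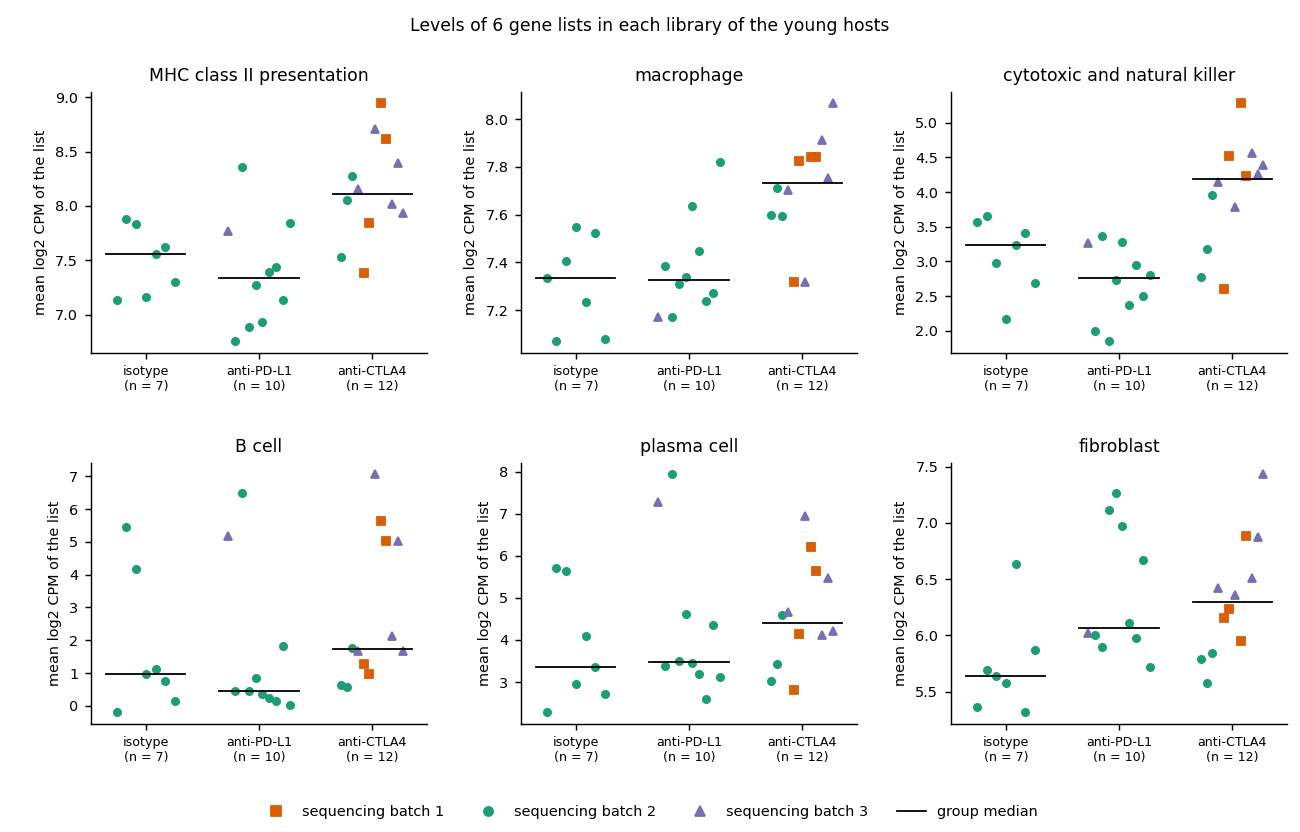
Level of 6 gene lists, as the mean log2 CPM of the members, in each young library, with the batch as colour and shape and the group median as a line. The B cell and plasma cell panels show anti-PD-L1 replicates 3 and 1 far above the other anti-PD-L1 libraries, at 6.50 and 5.18 for B cells, while MHC class II levels run from 7.38 to 8.94 under anti-CTLA4 and from 6.76 to 8.36 under anti-PD-L1.

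Immunoglobulin variable genes mostly followed the B cell genes in sign, and a few had larger negative fold changes. Of 165 variable genes tested 154 were negative, beside 53.3% of all genes. At p under 0.05, 24 were negative and 0 positive, beside 3.17% and 3.77% of all genes. These genes vary together with the B cell content of a library and are not separate observations. Their count without anti-PD-L1 replicate 3, on which the B cell median depended, was not computed. The median was -2.40. The kappa gene Igkv3-4 ran from 0.245 to 87.8 CPM under anti-CTLA4 (median 1.27) and from 0.144 to 4243 CPM under anti-PD-L1 (median 7.09), where replicates 3 and 1 held 4243 and 2056 CPM. Its log2 fold change was -7.66 ± 1.99 (edgeR adjusted p = 0.347), and -4.67 ± 1.42 without replicate 3. Igkv3-11 and Ighv2-3 were at -6.27 ± 1.63 and -6.49 ± 1.86. Variable genes are close copies of each other, so how reads were divided among them is uncertain.

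With the B cell level of each library as a covariate, 4 genes had an adjusted p under 0.05, and 3 of them were these variable genes: Igkv3-4 (-4.41 ± 0.75, adjusted p = 0.00389), Igkv3-11 (-5.13 ± 0.83, adjusted p = 0.00234) and Ighv2-3 (-4.48 ± 0.80, adjusted p = 0.00648). The fourth was Zmynd15, with an adjusted p of 0.0208. No fit took the plasma cell level as a covariate, so the part of plasma cell content in the variable genes was not tested. The highest plasma cell level was 7.94 under anti-PD-L1 and 6.95 under anti-CTLA4. The highest B cell levels were 6.50 and 7.06. The ratio of Igkv3-4 to Cd79a, both in CPM, puts the variable gene against the amount of B cell receptor RNA, and was computed after these values were seen, so it has no test. Among libraries with at least 50 CPM of Cd79a it was 15.9 and 22.3 in the 2 young anti-PD-L1 tumours, 0.157 to 0.377 in 4 young anti-CTLA4 tumours and 0.134 to 0.175 in 2 young isotype tumours. Over all libraries the ratio exceeded 1 in 8 of 10 young anti-PD-L1, 1 of 12 anti-CTLA4 and 1 of 7 isotype tumours, although most of these held little of either RNA.

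Aged hosts offered separate libraries for the same ratio. Over all aged libraries it exceeded 1 in 2 of 8 anti-PD-L1 tumours (median 0.199), 0 of 8 anti-CTLA4 and 0 of 7 isotype tumours. It was 0.700 to 9.80 in the 3 aged anti-PD-L1 tumours with at least 50 CPM of Cd79a, 0.0378 to 0.143 in 2 aged anti-CTLA4 tumours and 0.153 to 0.204 in 2 aged isotype tumours. Aged anti-PD-L1 replicates 7 and 8 held 422 and 1566 CPM of Igkv3-4. With the B cell covariate the aged log2 fold change was -3.89 ± 0.85 for Igkv3-4 (edgeR p = 3.38e-05, adjusted p = 0.121) and -3.69 ± 0.76 for Ighv2-3 (adjusted p = 0.0648). Igkv10-95, another kappa gene, was at -2.89 ± 0.89 in young and 1.91 ± 0.84 in aged hosts with that covariate (adjusted p = 0.355 and 1), and at -4.22 ± 1.26 and 1.67 ± 1.26 without it.

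**Figure D4:**
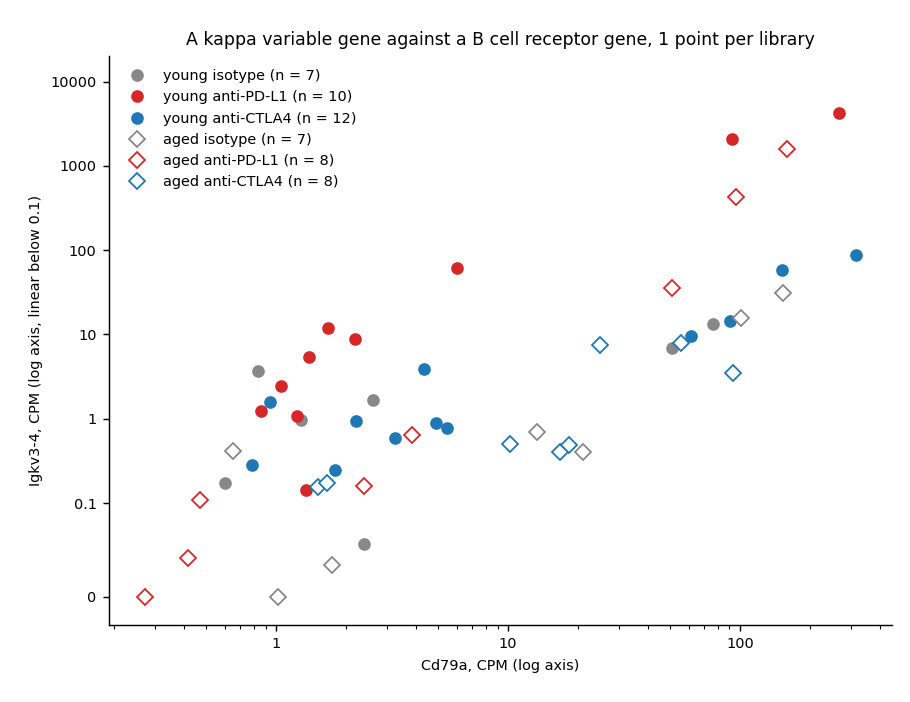
CPM of the kappa variable gene Igkv3-4 against CPM of Cd79a, 1 point per library of all 6 groups, both on log axes, the vertical one linear below 0.1. At 50 CPM of Cd79a or more, the ratio of Igkv3-4 to Cd79a is higher in anti-PD-L1 tumours of both ages. It is 15.9 to 22.3 in young and 0.700 to 9.80 in aged hosts, against at most 0.377 in the other groups.

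Lower fitted values outside the immunoglobulins were led by Slc40a1, the iron exporter ferroportin of macrophages. It was at 1.43 to 12.0 CPM under anti-CTLA4 (median 7.24), 2.11 to 16.7 CPM under anti-PD-L1 (median 5.61) and 1.66 to 5.79 CPM under isotype (median 2.59). The log2 fold change with the batch term was -1.64 ± 0.42 (interval -2.49 to -0.79, edgeR adjusted p = 0.347). The anti-CTLA4 libraries of batch 2 held 1.43, 2.33 and 1.98 CPM, and -1.98 ± 0.60 was the value in that batch. Without a batch term it was -0.37, since the anti-CTLA4 libraries of batches 1 and 3 were higher, at 3.75 to 12.0 CPM. DESeq2 gave it an adjusted p under 0.05.

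Usp34, a large deubiquitinase, was at 26.6, 39.3 and 36.7 CPM in batch 2 under anti-CTLA4, below all 9 anti-PD-L1 libraries (45.1 to 71.5 CPM), which is seen for 134 genes (0.749%). Over all batches its ranges were 26.6 to 96.2 CPM and 45.1 to 77.6 CPM, with a log2 fold change of -0.62 ± 0.18 that was -0.16 without a batch term. The zinc finger genes Zfp644 and Zfp280c were at -0.46 ± 0.12 and -0.68 ± 0.20, and at 0.01 and -0.16 without a batch term. Exons of Usp34 and Zfp644 share bases with other genes, 2137 with Ahsa2 and 143 with a predicted model.

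Stromal genes had negative medians in this contrast. Against isotype the fibroblast median was 0.17 for anti-CTLA4 and 0.62 for anti-PD-L1. The median of TGF-beta and matrix genes against isotype was 0.11 and 0.48. Of 20 fibroblast genes 3 were positive and 17 negative, 2 of the latter at p under 0.05, beside 3.17% of all genes. The fibroblast median was -0.48. It was -0.80 in batch 2 alone, -0.09 without a batch term, -0.31 without anti-CTLA4 replicate 2 and -0.77 without anti-PD-L1 replicate 1. Pi16, which marks fibroblasts around vessels, was at 25.5 to 130 CPM under anti-CTLA4 (median 47.3) and 34.9 to 148 CPM under anti-PD-L1 (median 62.2). All 3 batch 2 anti-CTLA4 values, 27.7, 25.5 and 27.5 CPM, lay below the 9 anti-PD-L1 libraries, and isotype tumours were also low, from 13 to 81.8 CPM. Its log2 fold change was -1.13 ± 0.50, beside -0.83 ± 0.34 for Col14a1 and -1.30 ± 0.71 for Col1a1, both collagen genes. Without a batch term these values were -0.47 for Pi16, -0.19 for Col14a1 and -0.60 for Col1a1. Of 26 genes of TGF-beta signalling and matrix 4 were positive and the median was -0.51 (-0.30 without anti-CTLA4 replicate 1), with the crosslinking enzyme Loxl2 at -0.89 ± 0.41 and the matricellular Ccn2 at -0.72 ± 0.34.

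Gene length moved with these stromal values, and with some values outside the stroma. With the length trend of each library as a covariate the fibroblast median was -0.22 and the matrix median -0.18. The ribosomal protein list, whose 26 genes are short and were all positive with a median of 0.28, was at -0.01 with that covariate, and oxidative phosphorylation, with 24 of 26 positive and a median of 0.31, was at 0.07. In batch 2 the length trend differed by -0.167 between the antibodies (exact two-sided permutation test of 3 against 9 libraries, p = 0.1, adjusted over 2 library measures p = 0.1, smallest p possible 0.00455). Among single immune genes given above, Batf3 was at 0.40 and Psmb8 at 0.30 with the length covariate, both lower than without it. H2-Ab1 was at 0.96 and Zmynd15 at 0.89 with it, closer to their values above. The part of RNA quality in these lists and genes was not tested.

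The epithelial, hypoxia, proliferation and p53 lists had medians between -0.15 and 0.07, beside -0.03 over all genes. In bulk tumours the last 3 of these lists cannot be assigned to the tumour cells. The median was -0.01 for 20 epithelial genes, 9 of them positive, and -0.06 for 18 hypoxia and glycolysis genes. It was -0.15 for 25 proliferation genes, 8 of them positive, and 0.07 for 15 p53 genes. Neutrophil genes had 11 of 25 positive and a median of -0.03, which was 0.85 without a batch term and -0.35 in batch 2 alone. Their median library level (mean log2 CPM) was 4.18 under anti-CTLA4 and 3.47 under anti-PD-L1. Among single genes, Lgals7, an epithelial galectin, was at 0.72 ± 0.27, Pycr1, a proline synthesis enzyme, at -0.77 ± 0.25 with 0 of 12 anti-CTLA4 libraries above the anti-PD-L1 median, and Hmox1, which degrades haem, at -0.98 ± 0.44. All 13 mitochondrially encoded genes were negative, 3 at p under 0.05, with a median of -0.58 that was 0.02 without a batch term.

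Skeletal muscle genes, from tissue that can lie beside a fat pad tumour, were low, and 5 of the 8 tested had a positive log2 fold change. Atp2a1, the muscle calcium pump, was at 0.245 to 4.29 CPM (median 1.33) against 0 to 0.481 CPM (median 0.186), a log2 fold change of 2.70 ± 0.70, with all 3 batch 2 libraries above the 9. Ckm, muscle creatine kinase, was at 1.97 ± 0.68. Of the 14 list members 8 passed the filter on low counts, and their median of 0.51 was 0.13 without anti-CTLA4 replicate 1, 0.12 without a filter and -0.10 in a fit on the 22 libraries alone, where neither Atp2a1 nor Ckm passed the filter.

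The number of genes called differed with the treatment of batch. Without the batch term 306 genes had an edgeR adjusted p under 0.05, 240 higher and 66 lower. All 306 kept their sign with the term, and 186 of them were at an unadjusted p under 0.05 with it. That fit uses the same libraries from which the 306 were picked, so it is no separate check of them. Of the 306, 22 (7.19%) differed between batches themselves, beside 2147 of all genes (12.0%) that did. With batches so unevenly spread over the antibodies, these shares cannot tell which of the 306 reflect batch. Batch 2 alone gave 0 calls and 1702 genes at an unadjusted p under 0.05. Batch 1 has no young anti-PD-L1 library and batch 3 has 1, whereas batch 2 has no aged library and all 7 young isotype libraries. The difference of batch 2 from the other batches is thus estimated from the 2 young antibody groups themselves. On the anti-PD-L1 side it rests on replicate 1 alone outside batch 2, so antibody and batch are only partly separable.

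**Figure D5:**
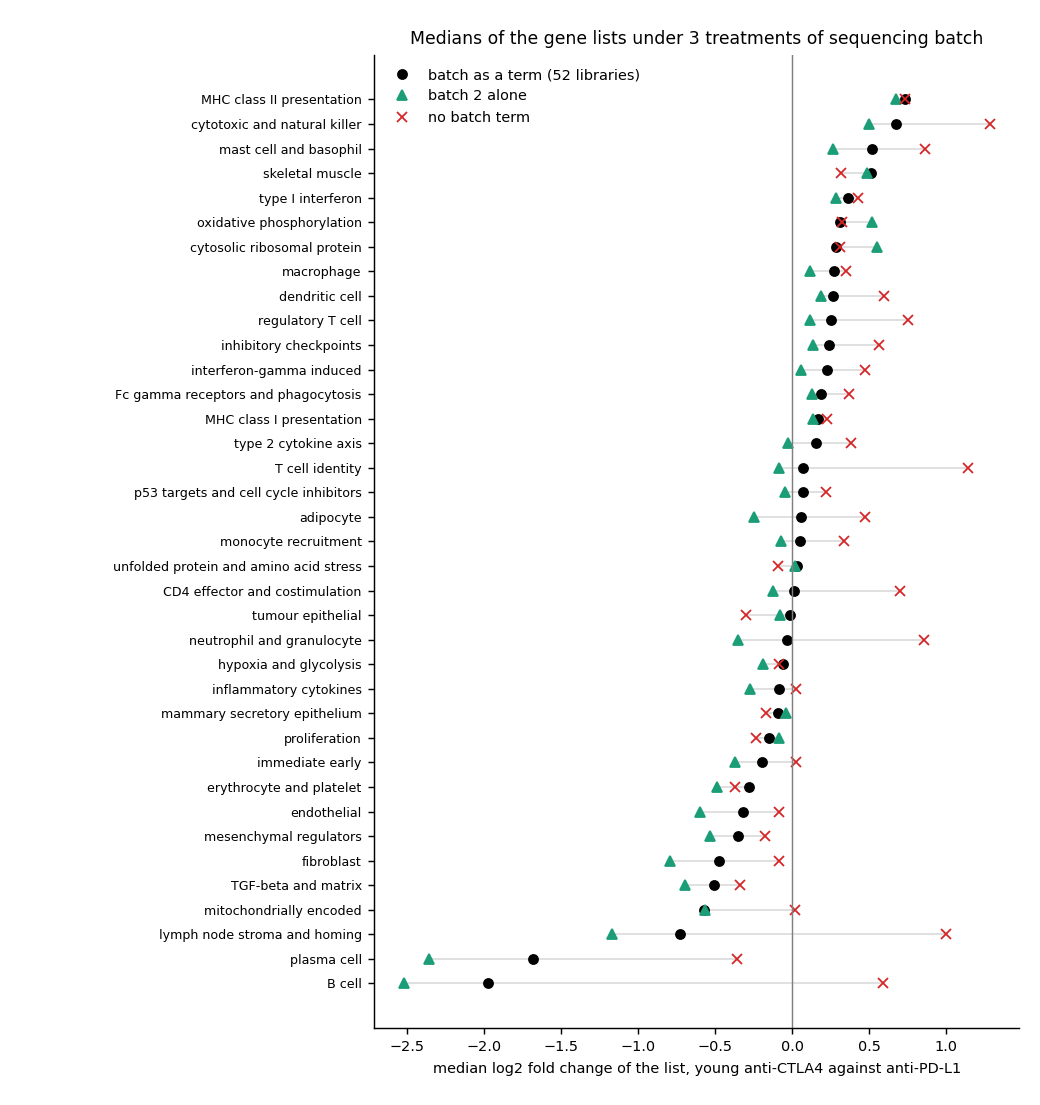
Median log2 fold change of each of the 37 gene lists under 3 treatments of batch: a batch term over 52 libraries (circles), batch 2 alone (triangles) and no batch term (crosses). MHC class II stays between 0.67 and 0.73 under the 3, while the B cell list moves to 0.59 and the T cell list to 1.14 when the term is dropped.

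The same contrast in aged hosts gave 0 genes at an adjusted p under 0.05 (0%), with 243 at an unadjusted p under 0.05 (1.36%), 77 higher (0.430%) and 166 lower (0.927%), and a smallest adjusted p of 0.226. Medians there were 0.04 for MHC class II, 0.08 for macrophage and 0.02 for cytotoxic genes. The difference between ages was tested directly, and 0 genes (0%) passed, with 332 (1.85%) at an unadjusted p under 0.05, 216 (1.21%) with the higher value in young hosts and 116 (0.648%) with the lower, and a smallest adjusted p of 0.986. At that unadjusted level were 4 of 13 class II genes (H2-DMa p = 0.0319, H2-Ab1 p = 0.0352, Ctss p = 0.0371, Ifi30 p = 0.0475) and 5 of 23 macrophage genes. The young values described above for these lists are part of this difference too, so the counts are not separate from them.

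Among single genes, Zmynd15 was at 0.29 ± 0.17 in aged hosts, 0.65 below the young value (p = 0.0115). Il27 was at -0.05 ± 0.26 in aged hosts (difference 0.92, p = 0.0214), where both antibody groups lay between 0.343 and 1.29 CPM, all below the lowest young anti-CTLA4 library. These CPM are not adjusted for batch, and no aged library came from batch 2, so age and batch are mixed in that ordering. Il12b was at 0.15 ± 0.30 (difference 1.15, p = 0.0183) and Klrb1c at 0.01 (difference 1.21, p = 0.0191). Pi16 had the opposite sign in aged hosts, 0.69, and the difference was -1.83 ± 0.62 (p = 0.00481). These p-values from edgeR are unadjusted, and no gene had an adjusted p below 0.986 for the difference. The genes of this paragraph were named for their values in young hosts, which are also part of the difference. That choice favours small p-values here, so they are given as a description only.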

How the data were processed

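RNA of 52 tumours was measured by sequencing. The values used are estimated counts per gene, whole numbers, that the authors deposited beside a second table in TPM. The processing notes of the submitters mention Salmon, mm10 and DESeq2 1.16.1. The summing of transcripts to genes is not stated there. The deposited counts were proportional to the authors' TPM times a length per gene (largest log2 deviation 0.0017 over 2644 genes with at least 500 counts). TPM served only for this check and for gene length. Of 47729 identifiers 47224 matched a symbol of GENCODE vM21 (GRCm38) and 11075 were 0 in every library.

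Counts of all 52 libraries entered 1 fit in edgeR 4.0.16 (R 4.3.3) with terms for the 6 groups and 3 sequencing batches, TMM factors and filterByExpr, which left 17899 genes. The 22 libraries compared had TMM factors of 0.735 to 1.20. A fit on all groups lets them share 1 estimate of the spread and of the batch differences. Quasi-likelihood F tests were adjusted over all genes by Benjamini-Hochberg, with a threshold of 0.05. CPM values are TMM-normalized. A list level is the mean log2 CPM with a prior count of 2. Of 111 pairs of libraries of a group, none was a copy (smallest chi-square per degree of freedom 19.6). The procedure was run on simulated counts with known fold changes. These held no batch differences, so the run does not bear on the uneven batches.

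The members, the 37 lists (659 genes, 2 without a symbol) and the tests were chosen with earlier results of these data known. Named genes were the 8 of smallest p per direction at 1 CPM or more on average, predicted models left out, since fewer than 5 passed, up to 3 of smallest p per list, and a set of followed checkpoint and T cell genes, 131 in all. A gene that the rule took is not reported here. Alternatives were DESeq2 1.42.0, relative log expression factors, no filter, no batch term, only the groups compared, batch 2 alone, batches 2 and 3 alone, the replicate number as a block, no library with a TMM factor under 0.8, the length trend or the B cell level as a covariate, and each library left out. Leaving out anti-CTLA4 libraries within batch 2, the ratio of Igkv3-4 to Cd79a and its minimum of 50 CPM were chosen after seeing the data.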

Additional observations from a re-analysis of the deposited data

Results flagged for a closer look

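In 5 of 171 sets of the 10 young anti-PD-L1 libraries, 1 library stood apart from its nearest neighbour by more than Dixon's critical share of the whole range allows. Chance gives about 1 such set in 20. Replicate 4 had the lowest log2 CPM of Batf3, 1.82, with the next at 2.86. Replicate 10 had the highest log2 CPM of Ccr2, 7.14, with the next at 6.42, and it is the library that held the highest anti-PD-L1 values of Zmynd15, Tifab and Fcgr1. Replicate 6 had the highest log2 CPM of the mast cell tryptase Tpsb2, 6.37, with the next at 5.58, and the lowest level of the proliferation list, 5.23, with the next at 5.90. Replicate 2 had the lowest level of the interferon gamma list, 5.70, with the next at 6.44.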

How the results depend on the processing

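The count of genes past the threshold was 0 with the batch term in edgeR, and also with relative log expression factors, no filter, only the groups compared, batch 2 alone, batches 2 and 3 alone, libraries with a TMM factor of 0.8 or more, and the length trend as a covariate. It was 13 with DESeq2, 306 without a batch term and 4 with the B cell covariate. It ran from 0 to 2 when each library was left out. For the aged contrast it was 18 with DESeq2 and 2 with the B cell covariate, and for the difference between ages 5 with DESeq2. The replicate block gave 0 genes past the threshold and 882 at an unadjusted p under 0.05; over 10 pairs with the same number the correlation of deviations ran from -0.30 to 0.32, 2 of them above 0.1, and 0 libraries correlated best with their own number, so the numbers are not used as pairs. Batch 2 alone without anti-CTLA4 replicate 1, 2 or 3 gave 0 calls and 509, 732 and 2325 genes at an unadjusted p under 0.05. Log2 fold changes that changed sign without a batch term were those of Ccl21a (0.59), Cd28 (1.04), Cd4 (1.03), Cd79a (0.52), Cd79b (0.43), Cdh2 (0.55), Cxcl13 (0.0321), Cxcl3 (1.03), Cxcr5 (0.70), Hk2 (0.28), Iglc2 (0.56), mt-Nd1 (0.0198), mt-Nd6 (0.19), Ppbp (0.35), Sdhc (-0.0426), Tcf7 (0.71) and Zfp644 (0.0102). With the B cell covariate they were those of Cd28 (0.0872), Cd4 (0.34), Cxcr5 (0.0261) and Iglc2 (0.48), and in batch 2 alone Cd274 (-0.13) and Cd80 (-0.12). When 1 library was left out, the values ran from -0.10 to 0.52 for Cd274, -0.96 to 0.19 for Cd28, -0.31 to 0.46 for Cd4, -3.50 to 0.17 for Cd79b, -0.10 to 0.27 for Cd80, -2.41 to 0.27 for Cxcr5, -2.29 to 0.31 for Iglc2 and -0.97 to 0.0623 for Tcf7. List medians without a batch term were 0.75 for regulatory T cells, 0.70 for CD4 effector genes, 1.28 for cytotoxic genes, 0.85 for neutrophils, 0.59 for B cells, 1.00 for lymph node stroma, -0.30 for tumour epithelium, 0.0222 for immediate early and 0.0198 for mitochondrially encoded genes. The skeletal muscle median was 0.12 without a filter and -0.10 with only the groups compared. The causes were not tested. Batches 2 and 3 alone for the aged contrast, and 1 or 2 batches alone for the difference between ages, were not run because groups were missing there. Depth sets a limit for genes near 1 CPM, such as Il27 and Dntt.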
